A study of Arabidopsis thaliana with 11 samples.

Results

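The SWEET genes encode membrane proteins that let sugars pass across a membrane down their gradient, and 10 of them were followed here through the first days of flower formation in Arabidopsis: SWEET1, SWEET2, SWEET4 and SWEET11 to SWEET17. The genes were taken from the table by name. Of the 10, 8 had a row in the table of 20971 genes; SWEET13 and SWEET15 were not analysed here. Of these 8, 6 reached 1 FPKM (sequenced fragments, scaled by transcript length and library size) in at least 2 libraries and were tested among 19278 genes, while SWEET14 and SWEET16 stayed under that minimum.

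RNA was sequenced from inflorescences of Landsberg plants of the genotype pAP1:AP1:GR ap1 cal. All groups, day 0 included, shared this genotype: the ap1 and cal mutations remove a pair of MADS-domain proteins that specify floral meristems, and an AP1 fusion with the receptor for glucocorticoids is made where the AP1 promoter is active. The hormone analogue dexamethasone releases this fusion into the nucleus, after which the proliferating inflorescence meristems form flowers at about the same time. The libraries came from day 0, before any treatment (n = 3), and from day 2 (n = 2), day 4 (n = 3) and day 8 (n = 3) of daily dexamethasone application, whose concentration the sources state differently. No untreated plants were harvested after day 0, so that the age of the plants, their floral stage and the time under treatment cannot be told apart. The floral homeotic gene AP3 had a mean of 163.8 FPKM at day 8 and 0.122 FPKM at day 0, and 6 of 6 floral markers were called higher at day 8 than at day 0, against 14.2% of all genes tested. The FPKM columns had been brought to a common distribution before deposit, the depth of the libraries is unknown, and the pooled SD of log2(FPKM + 1) among libraries was 0.16 to 0.23 up to day 4 and 0.34 at day 8.

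Developing flowers are sinks that import sucrose through the phloem. Sucrose leaves phloem parenchyma cells through SWEET proteins, is taken up again by proton-coupled carriers of the SUC family, and in sink tissues can be split by cell wall invertases into hexoses that STP carriers import. SWEET proteins are grouped in clades: SWEET1 and SWEET2 belong to a clade that mainly carries hexoses, as does SWEET4 in another; SWEET11 to SWEET15 carry mainly sucrose; and SWEET16 and SWEET17 lie in the vacuole membrane.

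Summed over the 8 genes, SWEET transcripts amounted to 26.7 to 29.3 FPKM in the day 0 libraries, 29.0 to 31.4 FPKM at day 2, 37.0 to 40.8 FPKM at day 4 and 82.6 to 101.8 FPKM at day 8. The mean sum was 1.07 times that of day 0 at day 2, 1.4 times at day 4 and 3.37 times at day 8. The make-up of the sum changed as well. SWEET17 held 17.8% to 26.4% of it in day 8 libraries, against 50.1% to 58.8% in day 0 libraries, SWEET1 held 35.6% to 39.4% at day 4, against 12.2% to 17.2% at day 0, and at day 8 SWEET1, SWEET11, SWEET12 and SWEET17 each held between 17.8% and 28.7%. The plot of summed FPKM shows 4 genes of similar level at day 8, where a single vacuolar carrier made up most of the sum at day 0. The sum leaves out SWEET10, a further family member in the table but outside the chosen set. Its mean was 16.4 FPKM at day 0, above the 15.1 FPKM of SWEET17, and 4.38 FPKM at day 8. These shares and ratios thus hold for the chosen genes and not for all SWEET transcripts. Since whole inflorescences were sequenced, fewer or more cells of a type and less or more RNA per cell cannot be told apart in any of these values.

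**Figure D1:**
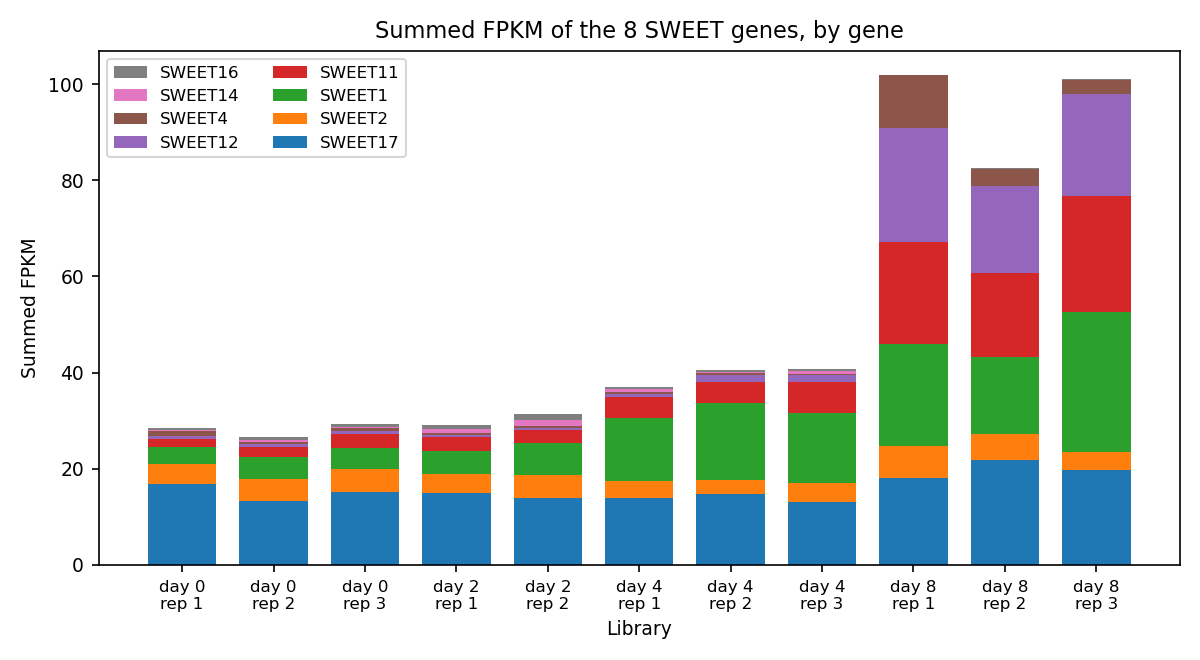
Summed FPKM (vertical axis) of the 8 SWEET genes in each of the 11 libraries (horizontal axis, in order of day), with 1 colour per gene. The day 8 libraries reach 82.6 to 101.8 FPKM against 26.7 to 29.3 FPKM in the day 0 libraries, with SWEET17 at the base of each bar nearly level and SWEET1, SWEET11 and SWEET12 making up most of the added height.

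SWEET1, SWEET11 and SWEET12 differed among the 4 days by limma's F test with Benjamini-Hochberg adjustment and a 2-fold minimum on FPKM + 1, and SWEET2 and SWEET17 were not called. Among all genes tested, 32.8% passed the same rule. SWEET4 also passed it, but it entered the tests only through its high day 8 values, so it is described without a test and left out of the counts of genes called at day 8. SWEET1 was higher by day 4, whereas SWEET11 and SWEET12 were called between day 8 and day 4. The median difference of the 5 genes without SWEET4 between day 8 and day 0 was 2.12 on the log2 scale, against -0.19 for all genes tested.

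**Figure D2:**
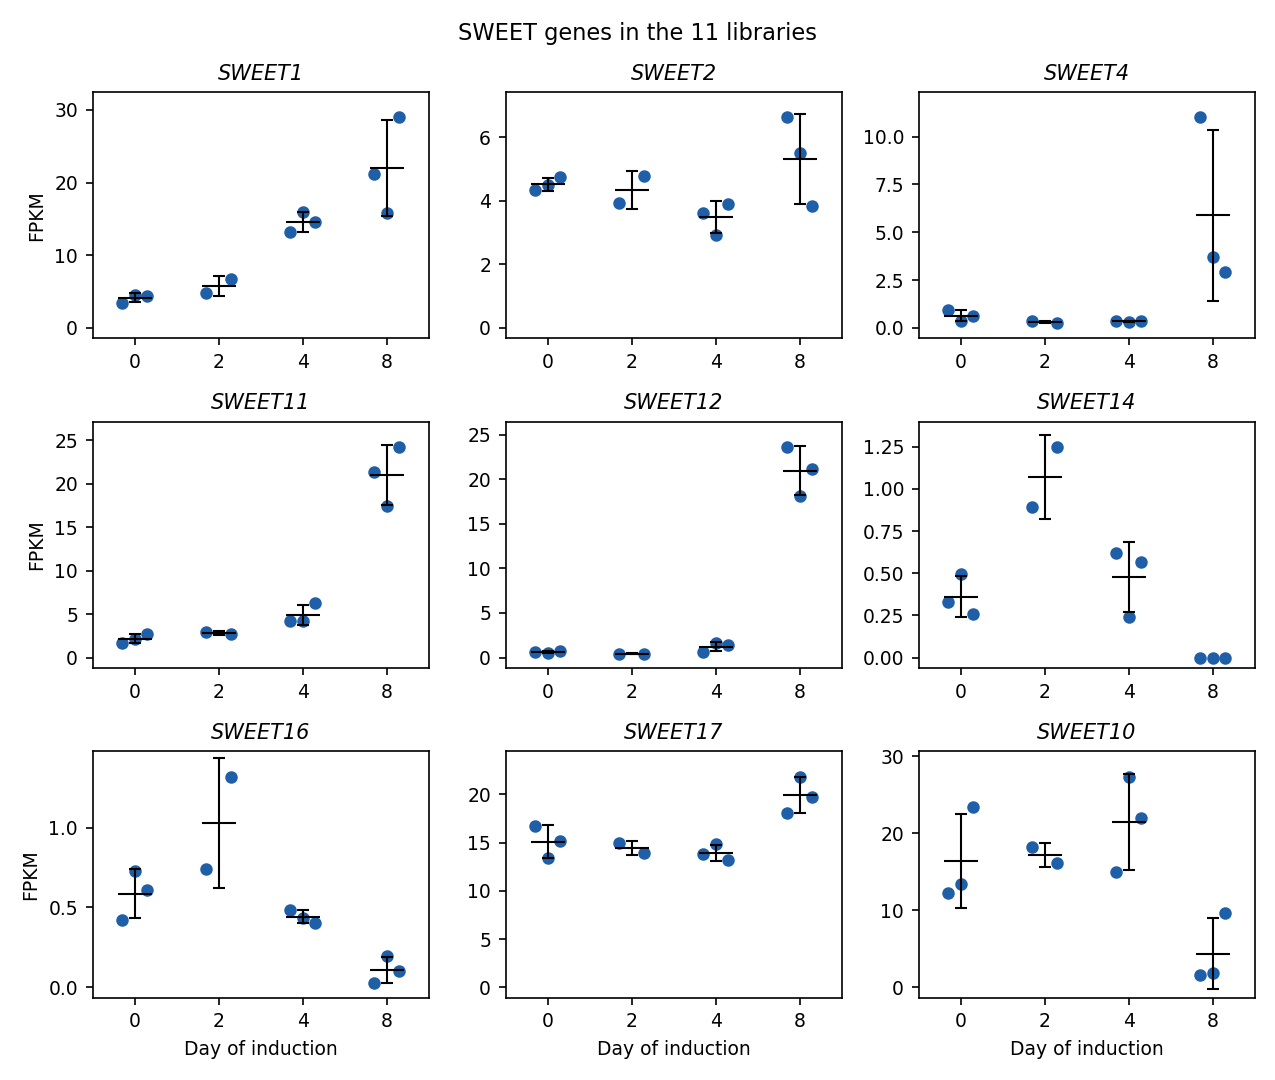
FPKM (vertical axis, own scale in each panel) of the 8 SWEET genes and of SWEET10 by day of induction (horizontal axis). Points are single libraries, and bars are the mean and SD of each day, left out for SWEET14 at day 8, where all 3 libraries are listed at 0. SWEET1 stands apart from day 0 at day 4, whereas SWEET4, SWEET11 and SWEET12 do so mainly at day 8, SWEET2 and SWEET17 move little, and SWEET10 is lower at day 8.

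Among the hexose carriers, SWEET1, a glucose transporter of the plasma membrane (AT1G21460, chr1:7511750-7513481, minus strand, 6 exons, RefSeq TAIR10.1), had 3.49, 4.59 and 4.44 FPKM at day 0, 4.76 and 6.69 FPKM at day 2, 13.2, 16.0 and 14.6 FPKM at day 4, and 21.2, 15.9 and 29.0 FPKM at day 8. Every library of days 4 and 8 lay above every library of days 0 and 2, while the day 8 and day 4 libraries overlapped. Mean levels were 14.6 ± 1.41 FPKM at day 4 and 4.17 ± 0.60 FPKM at day 0 (SD, n = 3 each), a difference of 1.60 ± 0.20 on the log2(FPKM + 1) scale (SE, limma adjusted p = 0.000716). SWEET1 was the only member called higher at day 4 than at day 0, against 1.59% of all genes tested.

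SWEET1 was also the only member called between day 4 and day 2, where 0.301% of all genes tested were called higher. That step measured 1.22 ± 0.22 (SE, limma adjusted p = 0.0338), and the call did not hold without any of the 3 day 0 libraries, without day 2 replicate 1 or without any of the 3 day 4 libraries. In those fits the difference stayed between 1.02 and 1.29, with adjusted p up to 0.307. Without a day 0 library it stayed at 1.22 (limma adjusted p = 0.0514 to 0.0638). Day 0 libraries bear on this step only through the estimate of spread shared by the 4 days. Day 8 differed from day 4 by 0.52 ± 0.20, under the 2-fold minimum (limma adjusted p = 0.032). Day 8 exceeded day 0 by 2.12 ± 0.20 (limma adjusted p = 2.76e-06), a ratio of mean FPKM of 5.27, and 75.2% of this log2 difference was in place at day 4.

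SWEET4, a plasma membrane hexose carrier (AT3G28007, chr3:10408073-10409977, minus strand, 6 exons), was below 1 FPKM in every library of days 0, 2 and 4. It had 0.94, 0.36 and 0.61 FPKM at day 0, 0.36 and 0.28 FPKM at day 2, 0.35, 0.31 and 0.35 FPKM at day 4, and 11.01, 3.70 and 2.93 FPKM at day 8. Each day 8 library was above all others, but day 8 replicate 1 was far above the other 2. The gene passed the filter on low values only through the day 8 libraries, so its place among the tested genes already required a high value there. Day 8 averaged 5.88 ± 4.46 FPKM against 0.337 ± 0.027 FPKM at day 4 (SD, n = 3 each), a difference of 2.18 ± 0.34 on the log2(FPKM + 1) scale (SE). The difference between day 8 and day 0 was 1.90 ± 0.34, and 1.41 without day 8 replicate 1. On untransformed FPKM, an analysis of variance across the days did not call SWEET4, whereas the F test on the log2 scale did. Neither outcome is used as support, given how the gene entered the tests.

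The 250 bases upstream of the annotated start of SWEET4 are shown because they held the only G-box, CACGTG read on both strands, among the 10 member windows; the match is in capitals. Of 27443 windows of that length upstream of Arabidopsis genes, 6.49% held a G-box. The sequence, written 5′ to 3′ along the strand of the gene, is the Columbia reference of RefSeq TAIR10.1 and not that of Landsberg.
SWEET4, chr3:10409978-10410227, minus strand: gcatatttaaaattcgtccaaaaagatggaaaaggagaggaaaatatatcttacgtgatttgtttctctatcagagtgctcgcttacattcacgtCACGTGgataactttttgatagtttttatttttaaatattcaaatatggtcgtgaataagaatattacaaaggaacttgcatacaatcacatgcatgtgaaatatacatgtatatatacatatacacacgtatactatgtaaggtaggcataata
The match lay 155 to 150 bases before the start and is a description of letters only.

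SWEET2, a glucose carrier of the vacuole membrane (AT3G14770), had 4.32, 4.48 and 4.74 FPKM at day 0, 3.92 and 4.76 FPKM at day 2, 3.62, 2.93 and 3.90 FPKM at day 4, and 6.62, 5.50 and 3.82 FPKM at day 8. The day 8 libraries spread around those of day 0 and overlapped them, and those of day 4 lay just below day 0. No comparison passed the 2-fold minimum, and the F test gave a limma adjusted p of 0.115. Day 8 differed from day 0 by 0.17 ± 0.17 on the log2(FPKM + 1) scale (limma adjusted p = 0.367), and from day 4 by 0.48, under the 2-fold minimum (adjusted p = 0.0246).

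**Figure D3:**
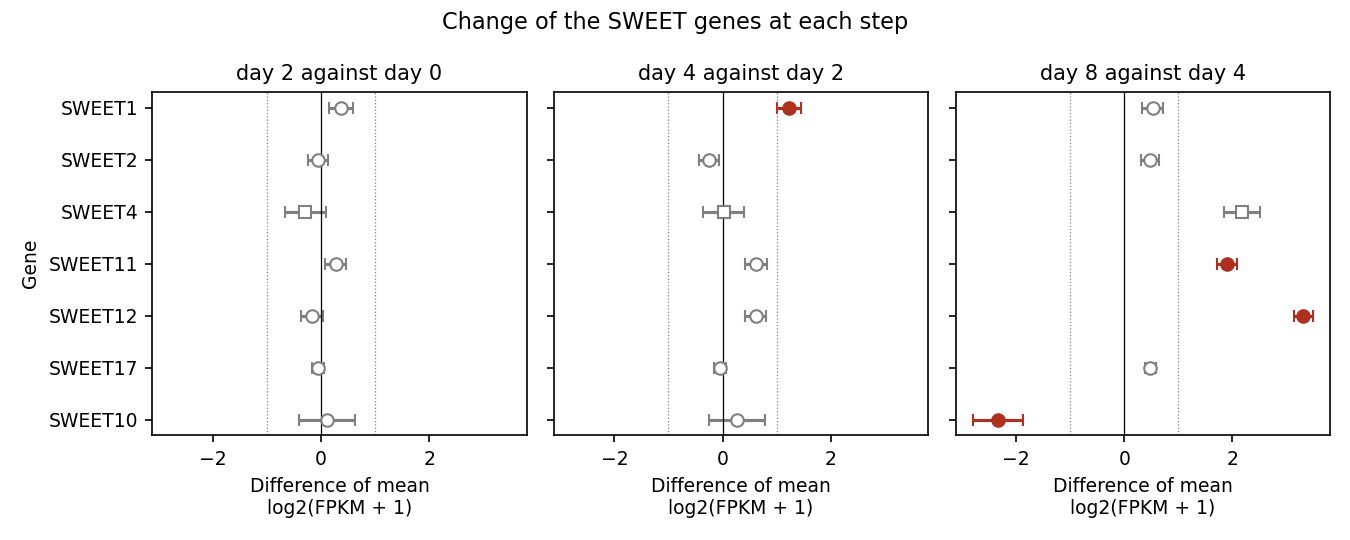
Difference of mean log2(FPKM + 1) (horizontal axis, shared by the panels) for each tested SWEET gene and SWEET10 (vertical axis) at each step, the later day minus the earlier. Points are limma estimates with bars of 1 SE, filled where called (adjusted p below 0.05 and at least 2-fold, dotted lines at -1 and 1); SWEET4, given without a test, is an open square. No gene is called at the first step, SWEET1 (1.22) is called at the second, and SWEET11 (1.90), SWEET12 (3.31) and, in the other direction, SWEET10 (-2.34) at the third.

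The sucrose carriers SWEET11 and SWEET12 form the pair known for sucrose efflux from phloem parenchyma cells in leaves, where the genes act redundantly. SWEET11 (AT3G48740, chr3:18052466-18054832, minus strand) had 1.64, 2.18 and 2.76 FPKM at day 0, 2.95 and 2.67 FPKM at day 2, 4.24, 4.23 and 6.26 FPKM at day 4, and 21.3, 17.4 and 24.2 FPKM at day 8. The day 4 libraries lay above all earlier ones, and those of day 8 lay above all of day 4. The difference between day 8 and day 4 was 1.90 ± 0.18 on the log2(FPKM + 1) scale (limma adjusted p = 4.47e-06) and that between day 8 and day 0 was 2.79 ± 0.18 (adjusted p = 2.05e-07), a ratio of mean FPKM of 9.58. Between day 4 and day 0 the difference of 0.89 ± 0.18 (adjusted p = 0.0113) missed the 2-fold minimum, but was called without day 0 replicate 3 (1.013) and with a pseudocount of 0.1 (1.13).

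SWEET12 (AT5G23660, chr5:7971647-7973995, minus strand) had 0.62, 0.50 and 0.73 FPKM at day 0, 0.42 and 0.46 FPKM at day 2, 0.68, 1.58 and 1.46 FPKM at day 4, and 23.6, 18.1 and 21.2 FPKM at day 8. Day 4 still overlapped day 0, and the lowest day 8 library stood far above every other. Day 8 averaged 20.9 ± 2.76 FPKM and day 4 averaged 1.24 ± 0.49 FPKM (SD, n = 3 each). The difference was 3.31 ± 0.18 on the log2(FPKM + 1) scale (limma adjusted p = 1.31e-07), and between day 8 and day 0 it was 3.76 ± 0.18 (adjusted p = 3.01e-08), with a ratio of mean FPKM of 33.9. SWEET12 thus had the largest log2 difference of the tested members, and moved up among all genes of a library to percentiles 57.2 to 65.1 at day 8, against 9.85 to 12.2 at day 0.

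Of the 5 tested members other than SWEET4, 2 were called higher at day 8 than at day 4 (SWEET11 and SWEET12), against 12.5% of all genes tested, and 3 were called higher at day 8 than at day 0 with SWEET1, against 14.2% of all genes. None of the 6 tested members was called between day 2 and day 0 by limma, where 0.337% of all genes were called changed. None was at an unadjusted p below 0.05 there either, against 11.3% of all genes, so that 0 of 6 is near the background.

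The balance within the pair also shifted. The ratio of SWEET11 to SWEET12 FPKM was 2.63, 4.33 and 3.77 in day 0 libraries, 6.95 and 5.85 at day 2, 6.26, 2.67 and 4.28 at day 4, and 0.903, 0.964 and 1.15 at day 8. FPKM is scaled by transcript length, so the genes were at like levels at day 8 only, and SWEET11 led in all 8 earlier libraries. At day 4, 31.8% of the log2(FPKM + 1) difference between day 8 and day 0 was in place for SWEET11 and 11.9% for SWEET12. That scale compresses values below 1 FPKM, where SWEET12 lay at days 0 and 2. The ratio of mean FPKM between day 4 and day 0 was 2.24 for SWEET11 and 2.01 for SWEET12. Over the 11 libraries log2(FPKM + 1) of SWEET11 and SWEET12 had a Pearson r of 0.97, the highest among the 15 pairs of tested members.

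SWEET11 and SWEET12 have similar coding sequences, with 82.6% of aligned bases identical in RefSeq TAIR10.1, so the sharing of reads between them was checked on the sequences. Their transcripts shared no word of 50 bases, and the longest identical run in the aligned coding sequences was 29 bases. The word length was a chosen setting, so exact words cannot show that no reads were shared. The most alike stretch of 100 coding bases is shown, with the bases that differ in capitals.
SWEET11, coding bases 481 to 580: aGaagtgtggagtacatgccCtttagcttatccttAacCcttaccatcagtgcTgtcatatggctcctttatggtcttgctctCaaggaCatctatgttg
SWEET12, coding bases 481 to 580: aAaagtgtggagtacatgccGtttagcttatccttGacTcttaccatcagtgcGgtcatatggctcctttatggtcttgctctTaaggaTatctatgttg
Even there 93 of 100 bases were identical and differences were spread over the stretch. RSEM, with which the authors estimated expression, divides reads that match several transcripts between them by an estimate.

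The windows of 250 bases upstream of the annotated starts of SWEET11 and SWEET12 are shown because these genes moved together at day 8. Capitals mark the bases that are identical in their best local alignment.
SWEET11, chr3:18054833-18055082, minus strand: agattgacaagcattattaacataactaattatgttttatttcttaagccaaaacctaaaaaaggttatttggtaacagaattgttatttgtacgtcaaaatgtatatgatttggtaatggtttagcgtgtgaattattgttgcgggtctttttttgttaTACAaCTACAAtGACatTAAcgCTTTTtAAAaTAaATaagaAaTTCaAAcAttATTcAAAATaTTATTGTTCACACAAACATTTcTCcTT
SWEET12, chr5:7973996-7974245, minus strand: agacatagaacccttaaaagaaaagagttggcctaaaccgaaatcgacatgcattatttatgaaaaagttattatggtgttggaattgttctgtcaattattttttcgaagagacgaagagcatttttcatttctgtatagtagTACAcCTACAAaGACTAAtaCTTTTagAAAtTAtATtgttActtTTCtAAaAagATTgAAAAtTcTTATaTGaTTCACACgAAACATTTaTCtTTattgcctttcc
The alignment held 68 identical of 88 aligned bases and lay next to the start, from 90 to 1 bases before it in SWEET11 and from 106 to 12 bases before it in SWEET12. Its score of 25 (1 for a match, -1 for a mismatch, -3 to open a gap and -1 to extend it) was second among the 136 pairs of 17 SWEET windows, after the SWEET13 and SWEET14 pair at 86, and the remaining 134 pairs scored 9 to 19. Neither window held a CArG box (2.52% of all windows), a G-box, TATAAA (47.3%) or CCANTG, the core of LEAFY sites (20.8%), read on both strands, which says only that these letters are not in the windows. Of the 10 member windows, 0 held a CArG box, 1 a G-box (SWEET4), 6 TATAAA and 1 CCANTG (SWEET15). SWEET1 held TATAAA on the other strand, 146 to 141 bases before its start.

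Markers of other cells and states were read in the same libraries. Of 10 phloem markers, 1 was called higher at day 8 than at day 4 (NAKR1), against 12.5% of all genes. Between day 8 and day 0, 3 were called higher (SEOR1 and SEOA, which encode sieve element proteins, and NAKR1), against 14.2% of all genes. In the other direction 1 was called lower (FTIP1), against 15.2% of all genes. FTIP1 passed the filter on low values only through its day 0 libraries, so its place among the tested genes already required a high value there. The sum of the 10 was 516.6 to 612 FPKM at day 8 and 59.8 to 65.6 FPKM at day 0. NAKR1 made most of the difference, and without it the sums were 78.0 to 99.6 FPKM at day 8 and 54.1 to 60.5 FPKM at day 0. APL, a regulator of phloem identity, had 6.89, 8.26 and 9.95 FPKM at day 8 and 10.8, 10.7 and 11.2 FPKM at day 0. Of 8 senescence and dark-inducible genes, 6 were called higher at day 8 than at day 0, against 14.2% of all genes. SAG13, 1 of these 6, passed the filter on low values only through its day 8 libraries. Its place among the tested genes thus already required a high value there. The sums of the 8 genes were 661, 1501 and 1807 FPKM at day 8 and 40.7 to 42.9 FPKM at day 0. Of 10 tapetum markers, only 3 had values. The regulators AMS and TDF1 stayed at or below 0.37 and 1.07 FPKM in every library. LAP6, an enzyme of pollen wall synthesis, had 16.9 to 31.5 FPKM. Neither of the 2 tested, TDF1 and LAP6, was called. The part of these cells and states in the SWEET values was not tested.

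Of the vacuolar carriers, SWEET17, a fructose transporter of the vacuole membrane (AT4G15920, chr4:9030486-9033648, minus strand), was the most abundant member per length up to day 2. It had 16.8, 13.4 and 15.2 FPKM at day 0, 15.0 and 14.0 FPKM at day 2, 13.8, 14.8 and 13.2 FPKM at day 4, and 18.1, 21.8 and 19.7 FPKM at day 8. The 3 day 8 libraries lay above all others, by a margin that was small beside those of SWEET11 and SWEET12. The difference was 0.48 ± 0.10 on the log2(FPKM + 1) scale between day 8 and day 4 (limma adjusted p = 0.00147) and 0.38 ± 0.10 between day 8 and day 0 (adjusted p = 0.00600). Both were past the p threshold and under the 2-fold minimum, so SWEET17 was not called.

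SWEET16, its close relative in the vacuole membrane (AT3G16690), had 0.42, 0.73 and 0.61 FPKM at day 0, 0.74 and 1.32 FPKM at day 2, 0.49, 0.43 and 0.40 FPKM at day 4, and 0.029, 0.20 and 0.10 FPKM at day 8. SWEET14, which in Arabidopsis carries sucrose and also gibberellin and is known from anthers (AT4G25010), had 0.33, 0.49 and 0.26 FPKM at day 0, 0.89 and 1.25 FPKM at day 2, 0.62, 0.24 and 0.57 FPKM at day 4, and was listed at 0 in all 3 day 8 libraries. Both genes had their lowest values at day 8, without overlap with day 0, the reverse of SWEET4, SWEET11 and SWEET12. With no filter on low values, SWEET14 was called among the 4 days (limma adjusted p = 0.000794) and SWEET16 was not (adjusted p = 0.00279, under the 2-fold minimum). At these levels little weight can be put on either, since 320 to 536 genes shared the lowest value, 0, in each day 8 library and the depth is unknown.

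Set in order of mean level, the day 8 libraries gave SWEET1 (22 FPKM), SWEET11 (21.0), SWEET12 (20.9), SWEET17 (19.9), SWEET4 (5.88) and SWEET2 (5.32), with SWEET16 and SWEET14 last. The first 4 overlapped one another, as did SWEET4 and SWEET2. At day 0 the order of means was SWEET17 (15.1 FPKM), SWEET2 (4.51), SWEET1 (4.17) and SWEET11 (2.19), followed below 1 FPKM by SWEET4, SWEET12, SWEET16 and SWEET14. SWEET2 and SWEET1 overlapped there, and among the lowest 4 all pairs overlapped except SWEET14 and SWEET12.

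SWEET10, the only further family member in the table and no member of the chosen set, took the opposite course. It is a sucrose carrier of the SWEET11 clade, known to be induced at the shoot apex at the floral transition. It had 12.3, 13.4 and 23.4 FPKM at day 0, 18.3 and 16.1 FPKM at day 2, 14.9, 27.3 and 21.97 FPKM at day 4, and 1.66, 1.83 and 9.67 FPKM at day 8. All 3 day 8 libraries were below all others, though day 8 replicate 3 was well above the other 2. The difference between day 8 and day 0 was -1.96 ± 0.46 on the log2(FPKM + 1) scale (limma adjusted p = 0.00269), against 15.2% of all genes called lower there, and -2.61 without day 8 replicate 3. Within the SWEET11 clade, SWEET10 was thus the most abundant gene measured up to day 4, and SWEET11 and SWEET12 at day 8.

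Other genes of sugar transport and sucrose metabolism were read from lists. Of 27 tested, 12 (44.4%) differed among the 4 days, beside the 32.8% of all genes, and 11 were called higher and 0 lower at day 8 than at day 0, against 14.2% and 15.2% of all genes. At an unadjusted p below 0.05 there were 23 of 27, near the 75.9% of all genes. Their median difference was 0.67 on the log2 scale, against -0.19 for all genes. STP14 and TMT3, both among the 23 and neither called, passed the filter on low values only through their day 8 libraries. Their place among the 27 thus already required a high value there. At day 4, 2 genes (STP13 and CWINV1) were called higher than at day 0, against 1.59% of all genes. Between day 2 and day 0 limma called 0, with 1 of 27 at an unadjusted p below 0.05, against 11.3% of all genes. Between day 4 and day 2 it called 0, with 8 of 27 at that level, against 13.4% of all genes.

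Among sucrose-proton symporters, which load sucrose into cells, SUC1 had 95.1, 138.1 and 146.7 FPKM at day 8 and 14.1, 15.8 and 23.3 FPKM at day 0, a difference of 2.78 ± 0.19 on the log2(FPKM + 1) scale (limma adjusted p = 3.87e-07). SUC4, of the vacuole membrane, rose by 1.22 ± 0.14 (adjusted p = 1.80e-05). SUC2, the phloem-loading symporter of companion cells, had 10.2, 10.9 and 8.79 FPKM at day 8 and 8.75, 10.7 and 10.4 FPKM at day 0, with full overlap. SUC2 showed no difference beyond its spread in the libraries in which SWEET11 and SWEET12 were higher.

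Among the named genes of sugar transport and metabolism, the largest differences between day 8 and day 0 were those of a hexose importer and a cell wall invertase. STP13, a hexose importer, had 89.3, 174.5 and 75.3 FPKM at day 8 and 0.62, 0.60 and 0.88 FPKM at day 0 (log2 difference 5.97 ± 0.29, limma adjusted p = 3.83e-08). CWINV1, a cell wall invertase that splits sucrose outside the cell, had 47.6, 89.1 and 66.4 FPKM at day 8 and 0.86, 0.84 and 1.45 FPKM at day 0 (log2 difference 5.03 ± 0.23, adjusted p = 2.46e-08). STP1 (3.12), STP4 (2.23) and CWINV3 (1.90) were also called higher on that scale. At the vacuole membrane ERDL6, a glucose exporter, was called higher (2.31 ± 0.13, adjusted p = 1.09e-07), while the importers TMT1 (-0.44), TMT2 (-0.97) and VGT1 (-0.44) and TMT3 (0.58) were not called. TMT2 was close to the fold minimum and was called lower with a pseudocount of 0.1 (-1.004) and without day 0 replicate 3 (-1.0013), day 8 replicate 1 (-1.08) or day 8 replicate 3 (-1.0018), so the count of 0 lower rests on that minimum.

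Inside the cell, sucrose synthases were divided. SUS3 was called higher at day 8 than at day 0 (2.72 ± 0.19, limma adjusted p = 4.44e-07) and SUS6 just passed the fold minimum (1.02 ± 0.16), a call that did not hold without day 0 replicate 3 (0.9965) or day 8 replicate 1 (0.90). SUS1 (-0.09), SUS2 (-0.56) and SUS5 (0.85), the cytosolic invertases CINV1 (0.41) and CINV2 (-0.59), and the sucrose-phosphate synthases SPS1F (-0.58) and SPS2F (-0.01), which make sucrose, were not called, and SUS1 and SPS2F turned positive after median-ratio rescaling (0.11 and 0.16). SUS4, SPS3F and SPS4F did not reach the minimum level and were not tested. Vacuolar invertases were left out of the lists, since the reference names did not hold their symbols.

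**Figure D4:**
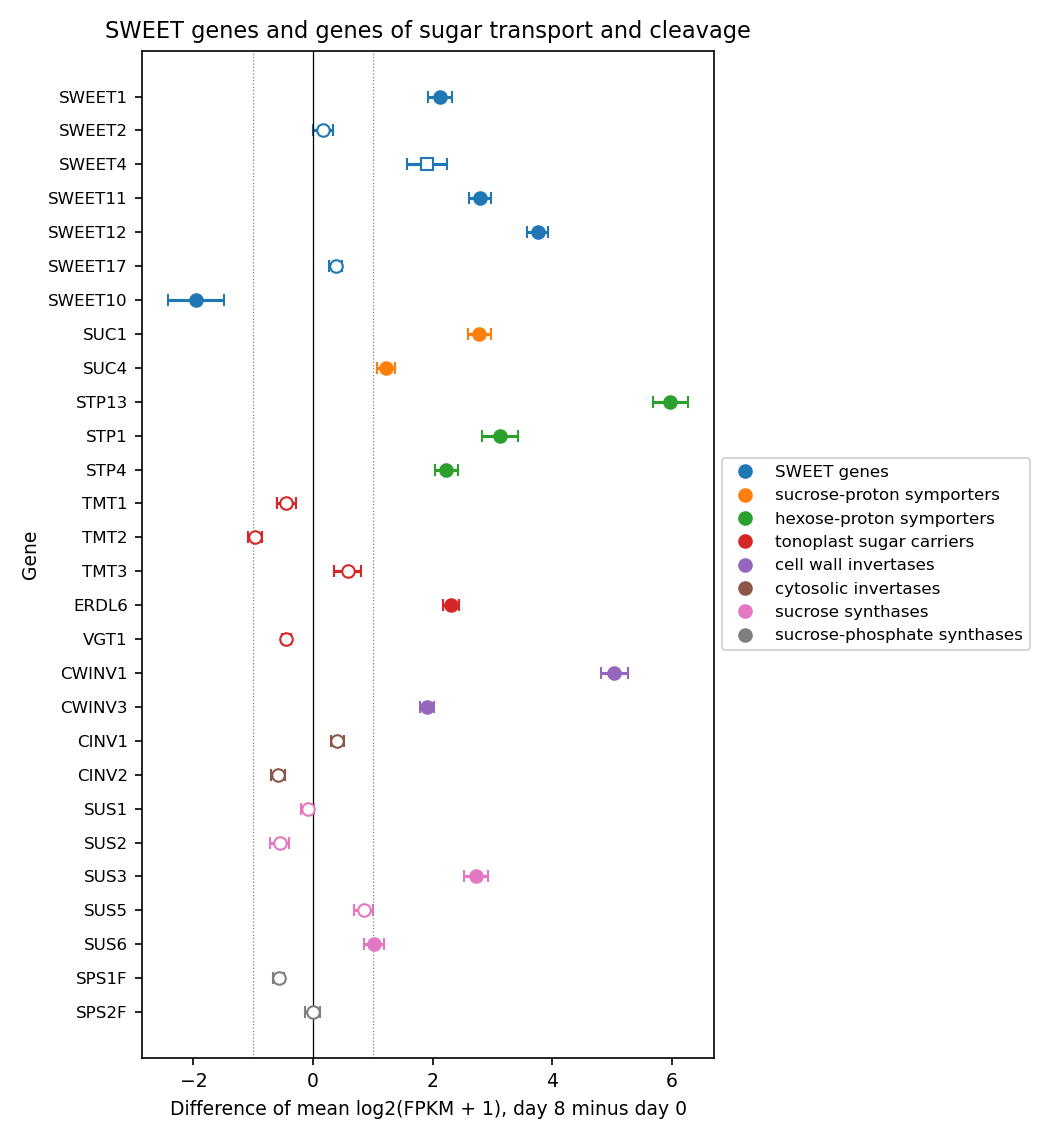
Difference of mean log2(FPKM + 1), day 8 minus day 0 (horizontal axis), for the tested SWEET genes and the named genes of sugar transport and metabolism (vertical axis, coloured by group). Points are limma estimates with bars of 1 SE, filled where called and open where not, SWEET4, given without a test, is an open square, and dotted lines mark -1 and 1. STP13 (5.97) and CWINV1 (5.03) are farthest to the right, SWEET12 (3.76) is the highest of the SWEET genes, and SWEET10 (-1.96) is the only gene plotted that was called lower.

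For SWEET1, SWEET4, SWEET11 and SWEET12, the genes with the most similar course were found by Pearson r of log2(FPKM + 1) over the 11 libraries, among 6441 genes whose day means ranged over at least 1 on that scale. SWEET1 was closest to PI (r = 0.98), the class B floral homeotic gene, whose mean was 25.1 FPKM at day 0, 35.9 FPKM at day 2, 106.5 FPKM at day 4 and 139.9 FPKM at day 8, and then to PGL1 (AT1G13700, r = 0.98). SWEET4 was closest to AT4G31110 and to ATPROT3 (r = 0.99 each), SWEET11 to AT3G07720 and AT5G21090 (0.99 each) and SWEET12 to ATGP4 (1.00 after rounding) and SSP4 (0.99). These values share libraries and the large day 8 difference, and describe likeness only. Among members, SWEET1 was less like SWEET12 (r = 0.78) and SWEET4 (0.56) than SWEET11 was (0.97 and 0.83).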

How the data were processed

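RNA-seq of inflorescences was read from the deposited table. The submitters' notes name STAR, RSEM 1.2.22 and the TAIR10 build, with which the authors made the FPKM they deposited per library. The deposited columns were already on 1 distribution: sorted columns differed by a median of 0.0702% (genes averaging at least 1 FPKM), and totals of 734615 to 734624 FPKM carry no depth, so no counting interval is given. The authors' columns of means, p-values across the days and FDR were not used.

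Genes that reached 1 FPKM in at least 2 libraries were fitted on the log2(FPKM + 1) scale with limma 3.58.1 in R 4.3.3 (4 days, 11 libraries, variance trend, 7 residual degrees of freedom) and adjusted by Benjamini-Hochberg over 19278 genes. Genes were called at an adjusted p below 0.05 and 2-fold. The p-values measure the spread among libraries of pooled inflorescences. The 4 days shared a single estimate of spread per gene, though the pooled SD was 0.34 at day 8 and 0.16 to 0.23 before. SEs and p-values of day 8 comparisons can thus be too small, and those of earlier steps too large. Alternatives were another pseudocount, no filter, no fold minimum, no trend, median-ratio rescaling, one-way analysis of variance, fits of 2 days, a replicate block and each library left out.

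Members and lists were chosen with earlier results of these data known. All genes of lists of up to 6, and otherwise the 3 called genes with the largest difference between day 8 and day 0, were named. SUC2, STP14, NAKR1, SEOR1, SEOA, FTIP1, APL, SAG13, AMS, TDF1 and LAP6 were named after their values were seen. A list gene was dropped where the reference names did not hold its symbol (7 genes). Among the genes dropped were STP3 and the listed vacuolar invertases BFRUCT3 and BFRUCT4, which reached the minimum level. Sequences came from RefSeq TAIR10.1 and were aligned with Biopython 1.88. The fit was tested on simulated data, with changes given only to genes of higher mean level and the same spread on each day. It does not bear on genes of low mean level such as SWEET4 and SWEET12.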

Additional observations from a re-analysis of the deposited data

How the results depend on the processing

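Of the SWEET results, the count called between day 4 and day 2 was 1 as reported, 0 with a replicate block (SWEET1 then 1.14, adjusted p = 0.0666) and 0 to 1 with a library left out. The count between day 4 and day 0 was 1, and 2 with a pseudocount of 0.1 or without a fold minimum, and 1 to 2 with a library left out, SWEET11 being the gene added. Without a fold minimum 6 members, SWEET4 included, were called between day 8 and day 4. Of 27 sugar pathway genes, 21 were then called among the 4 days and 23 between day 8 and day 0. Most of the 19278 genes passed without that minimum: 13505 between day 8 and day 4, 14130 among the days and 14261 between day 8 and day 0. The counts of members and pathway genes without a fold minimum thus do not set them apart from all genes. Differences that changed sign were all uncalled. With a library left out these ranged, day 2 against day 0, over -0.1624 to 0.0643 for SWEET2 and -0.1338 to 0.0185 for SWEET17, day 4 against day 2, over -0.0297 to 0.0657 for SWEET4, and day 8 against day 0, over -0.2197 to 0.0146 for SUS1 and -0.0947 to 0.0794 for SPS2F. After median-ratio rescaling SUS1 was at 0.1089 and SPS2F at 0.1629, and SUS5 was called (1.02). That rescaling moved the median of all genes between day 8 and day 0 to -0.006, against -0.19 as deposited, and the share of higher among called genes to 59.8%, against 48.3%; between day 8 and day 4 the share was 65.3%, against 53.2%. Calls of SWEET1, SWEET11, SWEET12 and SWEET10 between day 8 and day 0 held under every alternative run. Over all genes, calls without a fold minimum numbered 14130 among the days (6328 as reported), 160 (65) between day 2 and day 0, 144 (71) between day 4 and day 2, 13505 (4512) between day 8 and day 4, 1733 (426) between day 4 and day 0 and 14261 (5659) between day 8 and day 0. A pseudocount of 0.1 gave 98 between day 2 and day 0 and 647 between day 4 and day 0, a fit of only the 2 days gave 130 between day 2 and day 0, the block gave 25 there, and leaving out a library gave as few as 19 there and 28 to 120 between day 4 and day 2. The cause was not tested. Replicate numbers did not pair the libraries: deviations of same-numbered libraries correlated at -0.25 to 0.13, and 4 of 11 libraries correlated best with their own number. Depth is unknown, which limits SWEET14, SWEET16 and the low values of SWEET4 and SWEET12.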
